A study of Caenorhabditis elegans with 12 samples.

Results

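The 10 genes described here encode the enzymes of the 2 routes by which *Caenorhabditis elegans* breaks down propionate. They were chosen by name, from what is known of each enzyme, as the 5 genes of the propionate shunt (*acdh-1*, *ech-6*, *hach-1*, *hphd-1* and *alh-8*) and 5 genes of the vitamin B12-dependent route (*pcca-1*, *pccb-1*, *mce-1*, *mmcm-1* and *mmaa-1*). They are 10 of the 46904 genes in the count files, and all 10 were among the 15004 genes abundant enough to be tested. The rule uses no expression value, but the genes were chosen with earlier results of these data known. Messenger RNA of whole young adult hermaphrodites, synchronized by bleaching, was sequenced in 4 strains with 3 libraries each. These were the N2 wild type, the single mutants *trxr-2(tm2047)* and *gsr-1a(syb266)*, and a double mutant with both alleles (*gsr-1a trxr-2*). *gsr-1a(syb266)* is a CRISPR deletion of the first exon of *gsr-1* that removes only the mitochondrial form of glutathione reductase and leaves the cytosolic form, and *trxr-2(tm2047)* is a null allele of the mitochondrial thioredoxin reductase. Both alleles are carried in every cell of the animal, and both lie on chromosome III. The bacterial food of these cultures is not given in the sources used here. The study describes these libraries as biological replicates from independent experiments, and the labels number them without saying which number belongs to which experiment.

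Propionate and its activated form, propionyl-CoA, arise in mitochondria from the breakdown of valine, isoleucine, methionine, threonine and fatty acids with an odd number of carbons, and they are toxic when they build up. In the canonical route propionyl-CoA carboxylase makes methylmalonyl-CoA, an epimerase turns it into its mirror form, and a mutase that needs vitamin B12 as cofactor makes succinyl-CoA, which enters the citric acid cycle. When B12 is scarce and propionate accumulates, worms switch on the shunt, which oxidizes propionyl-CoA by way of acrylyl-CoA, 3-hydroxypropionate and malonic semialdehyde to acetyl-CoA without B12. The nuclear hormone receptors *nhr-10* and *nhr-68* drive this switch, and *acdh-1*, its first gene, is widely used as a reporter of dietary B12 in the intestine and hypodermis. *ech-6*, *hach-1* and *alh-8* also act in valine breakdown. Fewer cells of a type and less RNA per cell cannot be told apart in RNA of whole worms.

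Total counts ranged from 12114187 to 19688212 per library, with a median of 16360615, and each of the 10 genes held between 577 and 40558 counts per library. The 10 genes together took 0.463% to 0.636% of all counts. The *trxr-2* gene had 202, 240 and 264 counts in the wild-type libraries and at most 1 in any library of the 2 strains that carry its null allele, while counts over the whole *gsr-1* gene cannot show the loss of its first exon. Wild-type replicate 1 stood apart from the other libraries. The 6 vitellogenin genes, which encode the yolk proteins of the laying adult, took 0.342% of its counts and 1.79% of those of *trxr-2* replicate 1, against 3.57% to 6.78% in the other 10 libraries. The summed level of 4 body wall muscle markers was 176.9 CPM in wild-type replicate 1 and 1681 and 2130 CPM in the other wild-type libraries. CPM is the count relative to the library total, on the usual counts-per-million scale, normalized between libraries by the TMM method. Fold changes of the 10 genes in the double mutant against wild type are given with and without this library. The values without it also leave out replicate 1 of the 3 other strains unless stated otherwise.

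In wild-type worms the shunt genes were the more abundant set. Divided by the length of their exons, the mean levels of the shunt genes were 1252 CPM per kilobase for *acdh-1* (± 95.3, SD, n = 3), 769.6 for *ech-6*, 420.6 for *hphd-1*, 406.4 for *alh-8* and 381.2 for *hach-1*. Those of the B12-dependent route were 143.0 for *pccb-1*, 105.0 for *mmaa-1*, 88.0 for *pcca-1*, 69.3 for *mce-1* and 56.3 for *mmcm-1* (± 17.2, SD, n = 3). The lowest mean of the shunt therefore lay above the highest of the B12-dependent route. Among all genes tested, *acdh-1* stood at percentile 99.29 of this wild-type level and *mmcm-1* at percentile 83.55. Reads within introns were also counted, so these levels per kilobase are approximate. These means include wild-type replicate 1, which was low for *alh-8*, *pcca-1*, *pccb-1* and *mmcm-1*, so the order within each set partly rests on it.

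The clearest change among the 10 genes was in *hach-1*, which encodes the hydrolase that frees 3-hydroxypropionate from its CoA ester. The gene lies on chromosome III from 5555404 to 5557318 on the plus strand (WBcel235), a span of 1915 bases with 5 exons in its longest form. Its levels were 693, 489 and 525 CPM in the wild-type libraries, 532, 493 and 495 CPM in *gsr-1a*, 511, 508 and 477 CPM in *trxr-2*, and 252, 299 and 299 CPM in the double mutant. All 3 libraries of the double mutant thus lay below all 9 libraries of the other strains. Over all genes tested, the double mutant libraries did not overlap those of wild type for 45.6%, of *gsr-1a* for 32.8% and of *trxr-2* for 27.7%. The share apart from all 3 strains at once was not counted. The mean of *hach-1* fell from 569.1 ± 109 CPM in wild type to 283.2 ± 27.4 CPM in the double mutant (SD, n = 3), a log2 fold change of -1.01 (SE 0.15, adjusted p = 0.00186) with a 95% interval from -1.35 to -0.66. Adjusted p-values here come from the quasi-likelihood test of edgeR, corrected by the Benjamini-Hochberg method across the 15004 genes. Without replicate 1 the log2 fold change was -0.77 (SE 0.073, adjusted p = 0.000329).

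**Figure D1:**
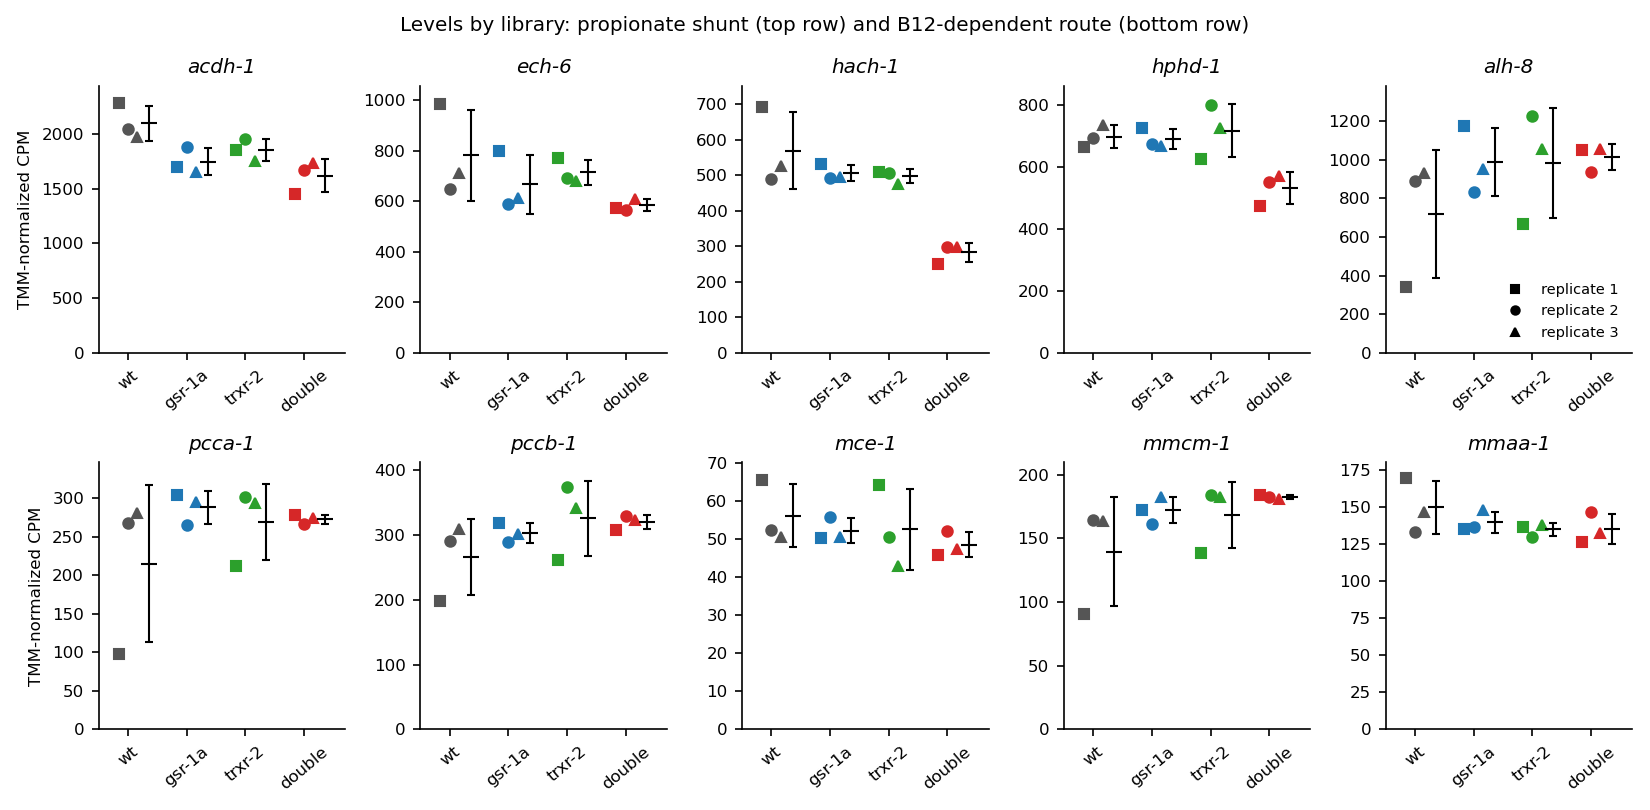
TMM-normalized CPM (vertical axes, linear, from 0) of each gene in wild type (wt), *gsr-1a*, *trxr-2* and the double mutant, with the shunt in the top row and the B12-dependent route in the bottom row. Squares, circles and triangles are replicates 1, 2 and 3, and the black mark with bars is the mean ± SD of 3 libraries. For *hach-1* the double mutant libraries sit between 252 and 299 CPM and the other 9 libraries between 477 and 693 CPM, and the grey square of wild-type replicate 1 lies far from the other wild-type points in *alh-8*, *pcca-1*, *pccb-1* and *mmcm-1*.

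*hach-1* was lower in the double mutant than in either single mutant. The log2 fold change was -0.84 against *gsr-1a* (SE 0.15, adjusted p = 0.0113) and -0.82 against *trxr-2* (SE 0.15, adjusted p = 0.00345). It was the only one of the 10 genes called, at an adjusted p under 0.05, in these comparisons, of which the first called 0.407% and the second 0.853% of all genes tested as lower. Leaving out replicate 1 of the double mutant ended the call against *gsr-1a* (adjusted p = 0.0633), and the call against *trxr-2* held with each library of those 2 strains left out. In the order of the strain means, wild type, *gsr-1a* and *trxr-2* came in turn with no difference between neighbours that passed the test, and the step from *trxr-2* to the double mutant did pass it. These comparisons share the double mutant libraries.

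The difference of the double mutant from the sum of both single-mutant changes was tested as an interaction. For *hach-1* it was -0.65 on the log2 scale (SE 0.21, unadjusted p = 0.01), with an adjusted p of 0.226. None of the 10 genes passed the edgeR test for this term, and DESeq2 called *hach-1* alone. In edgeR 1 of the 10 had an unadjusted p under 0.05, beside 1666 of the 15004 genes tested. Over all genes tested, edgeR called 0.766% and DESeq2 2.56% for the interaction. Without wild-type replicate 1 the *hach-1* term was -0.82 (adjusted p = 0.0471), and without the 4 libraries of replicate 1 it was -0.71 (SE 0.10, adjusted p = 0.0142). For *hphd-1* the term was -0.41 (SE 0.20, adjusted p = 0.477).

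*hach-1* lies between both mutated genes on chromosome III, with *gsr-1* from 3650905 to 3652973 and *trxr-2* from 8913769 to 8916450, all on the plus strand. Of the 2308 genes of chromosome III that were tested, 6.46% were called lower in the double mutant than in wild type, against 6.3% of all genes. This share covers the whole chromosome and not the stretch between both mutated genes. The part of linkage to the mutated genes in the *hach-1* change was not tested. *ech-6* and *mmcm-1* of the 10 genes lie on the same chromosome. *ges-1* and *ifb-2*, which mark the intestine, were called higher in the double mutant than in wild type, and the summed level of the 4 intestine markers was 391.3 to 595.2 CPM in wild type and 660.1 to 799.7 CPM in the double mutant. The 4 hypodermis markers summed to 999.3 to 1493 CPM in wild type and 1834 to 1974 CPM in the double mutant, with *rol-6* called higher. Nearly all of that sum was *col-19* (1289 and 1894 CPM, strain means), and *dpy-7* of the same list had the opposite sign, at 14.8 CPM in wild type and 7.13 CPM in the double mutant (log2 fold change -1.05, SE 0.35, adjusted p = 0.0563). All 3 sperm markers tested were called higher (summed level 5.51 to 10.4 CPM in wild type and 18.8 to 31.0 CPM in the double mutant), as was 1 of 4 neuron markers. None was called of the muscle, germline, oocyte or yolk lists, of which 1 yolk gene had an unadjusted p under 0.05. The body wall muscle markers still summed to 176.9 to 2130 CPM in wild type and 2937 to 3101 CPM in the double mutant (median log2 fold change 1.23, lowest adjusted p = 0.207, edgeR). The germline markers summed to 760.8 to 2077 CPM and 2108 to 2229 CPM, and the oocyte and yolk sums of both strains overlapped. The yolk sum was 3002, 46121 and 43273 CPM in wild-type replicates 1, 2 and 3 and 34535 to 40968 CPM in the double mutant. Of the 6 yolk genes, 4 had a negative and 2 a positive log2 fold change (median -0.90, from -1.92 to 0.86, lowest adjusted p = 0.088, edgeR). The part of these marker levels in the results for the propionate genes was not tested.

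The other 4 shunt genes did not pass the test in the double mutant. They lie on chromosome I from 6497436 to 6499560 on the plus strand (*acdh-1*), on chromosome III from 9751440 to 9752922 on the minus strand (*ech-6*), and on chromosome II from 12994358 to 12996571 on the minus strand (*hphd-1*) and from 11728949 to 11731226 on the plus strand (*alh-8*). *acdh-1*, the dehydrogenase that turns propionyl-CoA into acrylyl-CoA, was at 2281, 2044 and 1976 CPM in wild type, 1694, 1885 and 1655 CPM in *gsr-1a*, 1858, 1956 and 1756 CPM in *trxr-2*, and 1448, 1672 and 1735 CPM in the double mutant. The wild-type libraries were the 3 highest of the 12, an order that was not counted over all genes tested. The double mutant mean of 1618 ± 151 CPM was 0.771 times that of wild type, 2100 ± 160 CPM (SD, n = 3), a log2 fold change of -0.38 (SE 0.15, adjusted p = 0.105, edgeR). DESeq2 called this difference at a similar size (adjusted p = 0.00656), and without replicate 1 the edgeR value was -0.25 (SE 0.093, adjusted p = 0.081).

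*ech-6*, the hydratase of the next step, was at 985, 649 and 711.1 CPM in wild type and 575, 568 and 611 CPM in the double mutant. The means of the single mutants lay between, with libraries at 801, 590.1 and 613 CPM in *gsr-1a* and 772, 691 and 683 CPM in *trxr-2*. Every double mutant library was below every wild-type library, in a comparison where 45.6% of all genes tested did not overlap. The log2 fold change was -0.42 (SE 0.18, adjusted p = 0.128), and -0.21 without replicate 1 (SE 0.077, adjusted p = 0.0708).

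*hphd-1*, the dehydrogenase that oxidizes 3-hydroxypropionate to malonic semialdehyde and so uses the product of *hach-1*, was at 473, 553 and 573 CPM in the double mutant. It was at 664, 695 and 737 CPM in wild type, 727, 676 and 669 CPM in *gsr-1a*, and 627, 799.8 and 727 CPM in *trxr-2*. As for *hach-1*, the 3 double mutant libraries were the 3 lowest of the 12, an order that was not counted over all genes tested. The log2 fold change against wild type was -0.39 (SE 0.14, adjusted p = 0.0715), and without replicate 1 it was -0.35 and passed the test (SE 0.078, adjusted p = 0.0137). Against *gsr-1a* it was -0.37 (adjusted p = 0.148) and against *trxr-2* -0.43 (adjusted p = 0.0756). The last passed the test when *trxr-2* replicate 1 was left out (-0.52, adjusted p = 0.0291).

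*alh-8*, the aldehyde dehydrogenase that ends the shunt by making acetyl-CoA, did not follow the 4 genes before it. Its levels were 339, 889 and 931 CPM in wild type, 1176, 833 and 950.1 CPM in *gsr-1a*, 668, 1224 and 1056 CPM in *trxr-2*, and 1047, 935 and 1055 CPM in the double mutant. The log2 fold change in the double mutant was 0.49 (SE 0.33, adjusted p = 0.331), and without replicate 1 it was 0.12 (adjusted p = 0.422).

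Among the genes of the B12-dependent route none was called in the double mutant. *pcca-1* and *pccb-1* encode the biotin-bearing alpha and the beta subunit of propionyl-CoA carboxylase. *pcca-1* was at 97.5, 268 and 280.4 CPM in wild type and 278, 267 and 274 CPM in the double mutant, so that replicates 2 and 3 of wild type lay at the level of the mutant. Its log2 fold change of 0.34 (SE 0.30, adjusted p = 0.462) came to -0.026 without replicate 1 (SE 0.076, adjusted p = 0.823) and to -0.011 without wild-type replicate 1 alone. It was at 305, 265 and 295 CPM in *gsr-1a* and 212, 302 and 294 CPM in *trxr-2*. The span counted for *pcca-1*, chromosome X from 7657538 to 7687738 on the minus strand, holds 30201 bases and overlaps 10 other genes, 6 of them on the same strand. Read pairs that overlap several genes were not counted, so the level of *pcca-1* may be understated.

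*pccb-1* lies on chromosome X from 3089496 to 3092457 on the plus strand, *mmcm-1* on chromosome III from 3903114 to 3907687 on the minus strand, *mce-1* on chromosome I from 7582106 to 7583349 on the plus strand, and *mmaa-1* on chromosome II from 7099587 to 7101163 on the minus strand. *pccb-1* was at 199, 291 and 309 CPM in wild type, 318, 289 and 302 CPM in *gsr-1a*, 262, 374 and 341 CPM in *trxr-2*, and 308, 329 and 323 CPM in the double mutant, where its log2 fold change was 0.26 (SE 0.18, adjusted p = 0.324), and 0.11 without replicate 1 (adjusted p = 0.303). *mmcm-1*, the B12-dependent mutase, was at 90.3, 165 and 163 CPM in wild type, 173, 161 and 182 CPM in *gsr-1a*, 138, 184 and 183 CPM in *trxr-2*, and 184, 182 and 181 CPM in the double mutant. It was the only gene of this route whose double mutant and wild-type libraries did not overlap, where 45.6% of all genes tested did not overlap. Its log2 fold change was 0.39 (SE 0.20, adjusted p = 0.205), and 0.14 without replicate 1 (adjusted p = 0.18).

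*mce-1*, the epimerase, and *mmaa-1*, the GTPase that guards the cofactor on the mutase, varied least between strains, with the highest strain mean 1.16 and 1.11 times the lowest. *mce-1* was at 65.6, 52.3 and 50.6 CPM in wild type, 50.2, 55.9 and 50.5 CPM in *gsr-1a*, 64.1, 50.6 and 42.9 CPM in *trxr-2*, and 45.9, 52.2 and 47.5 CPM in the double mutant. *mmaa-1* was at 169, 133 and 146 CPM in wild type, 135, 136 and 148 CPM in *gsr-1a*, 137, 129 and 138 CPM in *trxr-2*, and 126, 146 and 132 CPM in the double mutant. The libraries of the 4 strains overlapped for both genes. In the double mutant the log2 fold changes were -0.21 (SE 0.15, adjusted p = 0.363, 95% interval from -0.56 to 0.14) and -0.15 (SE 0.11, adjusted p = 0.398, 95% interval from -0.41 to 0.12). Without replicate 1 they were -0.051 and -0.011.

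**Figure D2:**
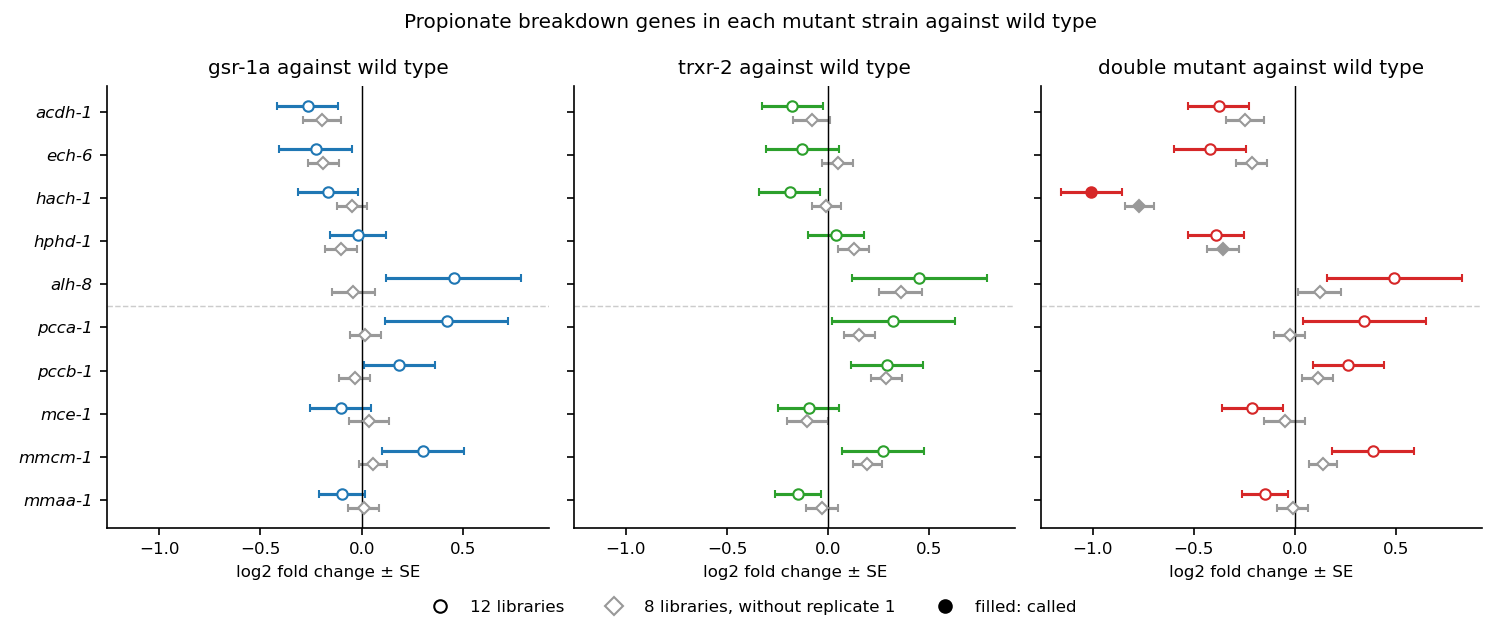
Log2 fold change ± SE (horizontal axis) of each gene in *gsr-1a*, *trxr-2* and the double mutant against wild type, with the shunt above the dashed line and the B12-dependent route under it. Circles come from all 12 libraries, grey diamonds from the 8 libraries without replicate 1, and filled symbols are called at an adjusted p under 0.05. *hach-1* in the double mutant is filled in both fits, *hphd-1* only in the second, and the positive values of *alh-8*, *pcca-1* and *mmcm-1* move toward 0 without replicate 1.

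Read as sets, 1 of the 5 shunt genes and 0 of the 5 genes of the B12-dependent route were called by edgeR in the double mutant against wild type. The comparison called 18.8% of all genes tested, 12.5% as higher and 6.3% as lower. At an unadjusted p under 0.05 there were 4 shunt genes, all lower, and none of the B12-dependent route. Of the 15004 genes tested, 4916 had an unadjusted p under 0.05 in this comparison, 2236 of them lower. DESeq2 called 3 shunt genes (*hach-1*, *acdh-1* and *hphd-1*), also lower, and none of the B12-dependent route, where it called 8.2% of all genes lower. The median log2 fold change was -0.39 over the shunt and 0.26 over the B12-dependent route, beside 0.027 over all genes tested. Without replicate 1 these medians were -0.25, -0.011 and 0.011. The libraries did not overlap for 4 shunt genes with lower values, for *alh-8* and for *mmcm-1*, which are 6 of the 10 genes, where 45.6% of all genes tested did not overlap. Without replicate 1, *hach-1* and *hphd-1* were called lower of the 10 genes, in a fit that called 11.6% of all genes lower.

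The summed level of the 5 shunt genes was 4767 to 4963 CPM in the wild-type libraries (4870 ± 98.5, mean ± SD, n = 3), 4597 ± 293 CPM in *gsr-1a*, 4771 ± 377 CPM in *trxr-2*, and 3795 to 4272 CPM in the double mutant (4032 ± 239). *acdh-1* made up the largest part of this sum in every strain. The summed level of the B12-dependent route was 621.3, 908.9 and 949.5 CPM in wild-type replicates 1, 2 and 3 (827 ± 179), 955 ± 41.7 CPM in *gsr-1a*, 950.4 ± 121 CPM in *trxr-2* and 959 ± 17.0 CPM in the double mutant. The lower values of the shunt sum in the double mutant did not overlap the wild-type values, and those of the B12-dependent route did. Wild-type replicate 3 lay within the double mutant's range of 942.4 to 976.3 CPM for the B12-dependent route, and replicate 2 just under it.

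In the single mutants edgeR called none of the 10 genes, none had an unadjusted p under 0.05, and DESeq2 called none. Few genes of any kind passed in these comparisons, 0.0267% of those tested by edgeR and 0.267% by DESeq2 for *gsr-1a*. For *trxr-2* edgeR called 0.0666% and DESeq2 0.133%. The values ran from -0.27 (*acdh-1*, SE 0.15, adjusted p = 0.664) to 0.45 (*alh-8*, SE 0.33, adjusted p = 0.69) on the log2 scale in *gsr-1a*. In the *trxr-2* strain they ran from -0.19 (*hach-1*) to 0.45 (*alh-8*, SE 0.33, adjusted p = 0.852), with *acdh-1* at -0.18 (SE 0.15, adjusted p = 0.857). Without replicate 1 *acdh-1* and *alh-8* were at -0.20 and -0.041 in *gsr-1a* (adjusted p = 0.692 and 0.952) and at -0.082 and 0.36 in *trxr-2* (adjusted p = 0.668 and 0.102). *acdh-1* was the only one of the 10 whose libraries did not overlap those of wild type, in both single mutants, where 16.7% of all genes in *gsr-1a* and 11.7% in *trxr-2* did not overlap. Both comparisons use the same wild-type libraries. Between *gsr-1a* and *trxr-2* no gene of the 10 was called by either tool, none had an unadjusted p under 0.05, and the libraries overlapped for all 10. In that comparison edgeR called 0.0533% and DESeq2 0.137% of all genes, and 8.88% did not overlap.

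Wild-type replicate 1 set much of the spread of the 10 genes. It lay below the other 11 libraries for *alh-8*, *pcca-1*, *pccb-1* and *mmcm-1* and above them for *acdh-1*, *ech-6*, *hach-1*, *mce-1* and *mmaa-1*, and only *hphd-1* was within their range. Of all genes tested, 20.7% were below and 20% above the other 11 libraries in this library. Relative to the mean of wild-type replicates 2 and 3 on the log2 scale, it was at -1.49 for *pcca-1*, -1.42 for *alh-8*, -0.86 for *mmcm-1* and -0.59 for *pccb-1*, and at 0.54 for *ech-6* and 0.45 for *hach-1*. Both routes hold genes of either sign, since *alh-8* of the shunt moved with the carboxylase and the mutase, and *mce-1* and *mmaa-1* moved with the first genes of the shunt. *trxr-2* replicate 1 differed from the other *trxr-2* libraries the same way for the 4 low genes, by -0.77 for *alh-8*, -0.49 for *pcca-1*, -0.45 for *pccb-1* and -0.41 for *mmcm-1*. Replicate 1 of *gsr-1a* and of the double mutant did not, with values of 0.40 and 0.076 for *alh-8*. Marker levels moved with these 2 libraries. In *trxr-2* replicates 1, 2 and 3 the body wall muscle markers summed to 1340.1, 3601 and 2164 CPM. The 4 germline markers summed to 760.8, 2077 and 1935 CPM in wild type and 1343, 2599.9 and 2606 CPM in *trxr-2*, and the 4 oocyte markers to 1137, 2385 and 2391 CPM and 1486, 2710.4 and 2801 CPM. In both strains replicate 1 was the lowest for these lists and for yolk, and their part in these differences was not tested.

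**Figure D3:**
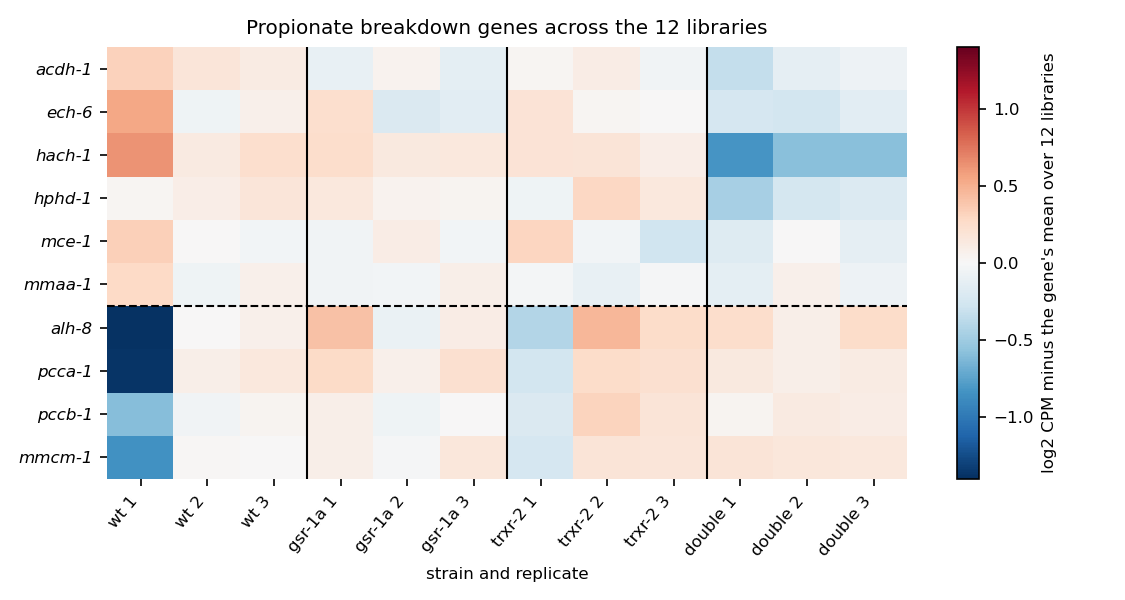
Log2 CPM of each gene minus its mean over the 12 libraries (colour, red above and blue below the mean), with libraries in columns by strain and replicate. Genes above the dashed line are those not low in wild-type replicate 1, and the 4 under it are those low in it. The dark blue cells of *alh-8* and *pcca-1* in wild-type replicate 1 and the blue run of *hach-1* over the 3 double mutant libraries stand out.

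The profile of *acdh-1* over the 12 libraries was compared with that of 13152 genes with a mean of at least 1 CPM, by the root mean square difference of log2 CPM centred on each gene. The 5 nearest genes were *hpo-31* (0.0817), *nhr-274* (0.0837), *JC8.7* (0.0868), *F57B10.8* (0.0869) and *mans-1* (0.0873), where the median over genes was 0.33. Of the 10 genes the nearest to *acdh-1* was *mmaa-1* at rank 673, followed by *mce-1* at rank 768, *hphd-1* at rank 1395, *ech-6* at rank 1590 and *hach-1* at rank 5898. *mmaa-1* and *mce-1* of the B12-dependent route thus came before the 4 other genes of the shunt. This measure is also small for a pair of genes that both vary little, and *mmaa-1* and *mce-1* varied least between strains. Their ranks therefore do not show that they moved together with *acdh-1*. *alh-8* was the farthest, at rank 10720.

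Further genes around these routes were described by lists, which overlap in a few genes. Their counts in the double mutant against wild type stand beside 12.5% of all genes tested called higher and 6.3% called lower. The 3 nuclear hormone receptors that govern the response to low B12, *nhr-10* and *nhr-68* for the shunt and *nhr-114* for low methionine supply, were not called in the double mutant by edgeR or DESeq2, and none had an unadjusted p under 0.05. *nhr-68* was at 53.5, 46.3 and 46.4 CPM in wild type and 30.8, 44.4 and 37.2 CPM in the double mutant, a log2 fold change of -0.38 (SE 0.18, adjusted p = 0.168). *nhr-10* was at 28.6, 30.8 and 30.3 CPM in wild type and 23.6, 27.1 and 26.2 CPM in the double mutant (log2 fold change -0.22, SE 0.15, adjusted p = 0.336). For both genes every double mutant library lay below every wild-type library, in a comparison where 45.6% of all genes did not overlap.

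Of 7 genes of B12 handling, 1 was called, lower. This was *pmp-5*, an ABC transporter of the family whose human member ABCD4 moves B12 out of lysosomes. Its levels were 224, 224 and 225 CPM in wild type, 224, 201 and 183 CPM in *gsr-1a*, 152, 201 and 186 CPM in *trxr-2*, and 75.2, 126 and 112 CPM in the double mutant. The double mutant libraries were again the 3 lowest, an order that was not counted over all genes tested. The log2 fold change against wild type was -1.10 (SE 0.18, adjusted p = 0.0024), and -0.92 without replicate 1 (adjusted p = 0.000254). *pmp-5* was also lower against *gsr-1a* (-0.96, adjusted p = 0.015) and against *trxr-2* (-0.79, adjusted p = 0.0112). The median of the list was -0.13.

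The family of acyl-CoA dehydrogenases, which take the first oxidation step on many CoA esters and of which *acdh-1* is a member, changed in both directions. Of its 13 genes 3 were called higher and 1 lower in the double mutant, with a median log2 fold change of 0.069. *acdh-8* was at 3.63, 4.36 and 5.41 CPM in wild type and 21.8, 11.3 and 23.3 CPM in the double mutant (log2 fold change 2.07, SE 0.40, adjusted p = 0.00508). *acdh-4* was at 3.19, 3.97 and 4.09 CPM in wild type and 7.76, 7.25 and 10.2 CPM in the double mutant (1.16, SE 0.23, adjusted p = 0.00503). The third higher gene, *acdh-5*, named here after its values were seen, was at 1.60, 1.09 and 2.39 CPM in wild type and 6.25, 3.68 and 6.29 CPM in the double mutant (1.66, SE 0.35, adjusted p = 0.00734). All 3 were of low abundance, with 20 to 356 counts in these libraries. *acdh-2* was the gene called lower, at 116, 99.9 and 91.2 CPM in wild type and 58.2, 61.0 and 73.4 CPM in the double mutant (-0.67, SE 0.14, adjusted p = 0.00605). The same 4 genes were called without replicate 1.

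Among 12 genes of branched-chain amino acid breakdown, 1 was called higher and none lower, with a median of 0.081. Of these amino acids, valine and isoleucine are the sources of propionyl-CoA. *ivd-1*, the isovaleryl-CoA dehydrogenase of leucine breakdown, was at 154, 213 and 210 CPM in wild type and 288, 266 and 302 CPM in the double mutant (log2 fold change 0.57, SE 0.17, adjusted p = 0.035). Its call was lost when any 1 library of either strain was left out, with adjusted p from 0.0535 to 0.151. Without replicate 1 in all strains, in a fit that called 13.9% of all genes higher, 3 genes of this list were called higher, *ivd-1* and, named here after their values were seen, *dld-1* and *bckd-1A*, which encode subunits of the branched-chain ketoacid dehydrogenase. None of 10 genes of the methionine and S-adenosylmethionine cycle was called in the double mutant against wild type by edgeR or DESeq2. In edgeR 2 of them had an unadjusted p under 0.05, both lower, and the median was -3.48e-05. Without replicate 1, in the same fit, *pmt-1*, a phosphoethanolamine methyltransferase, and *ahcy-1*, the S-adenosylhomocysteine hydrolase, were called higher, both also named after their values were seen.

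**Figure D4:**
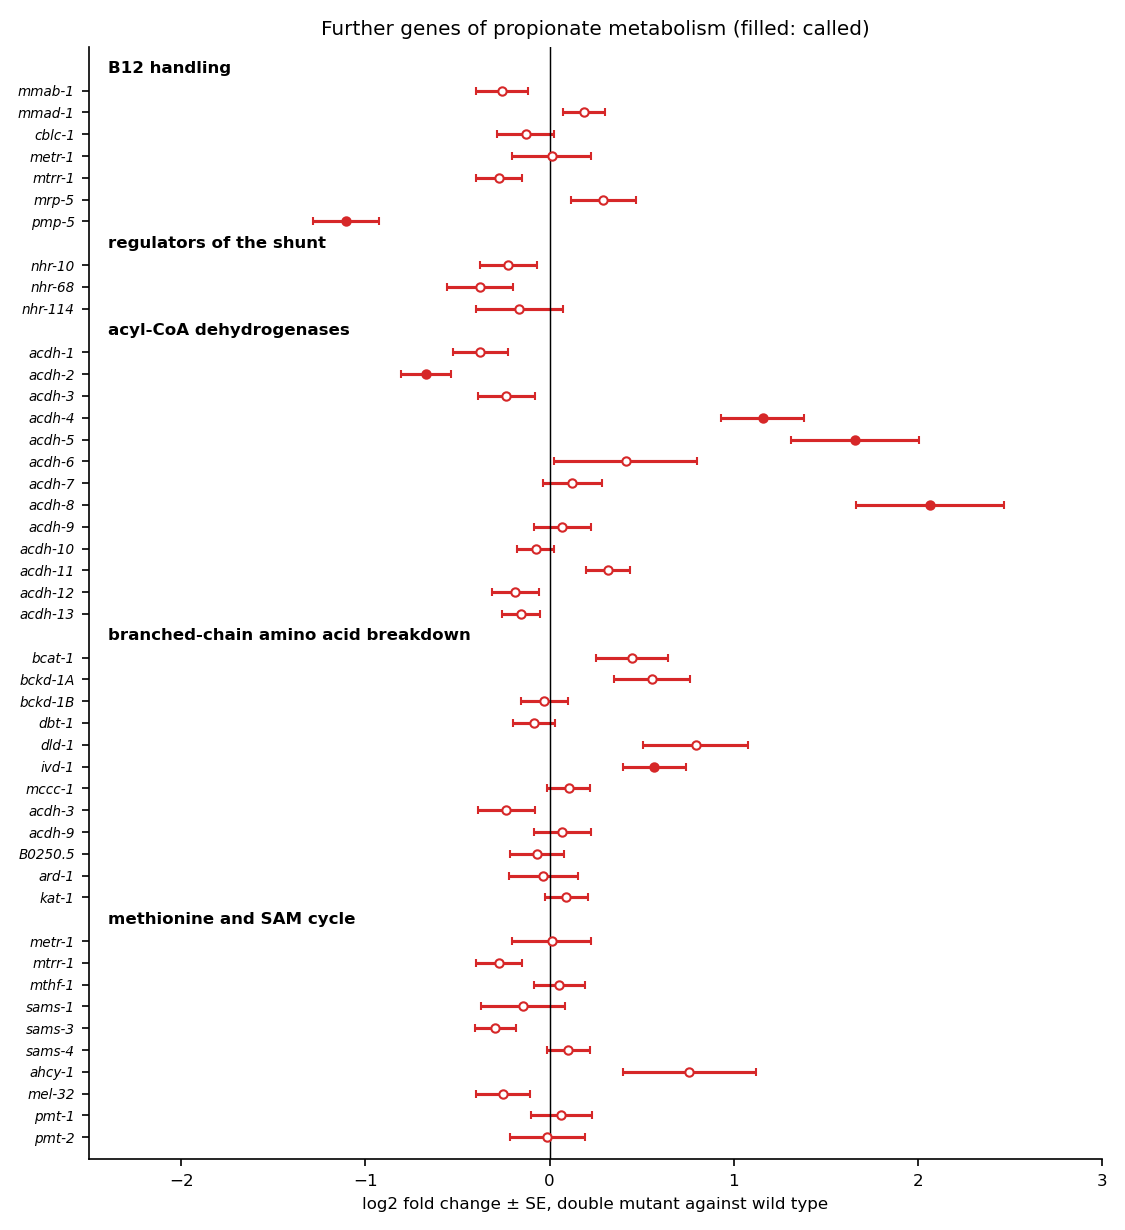
Log2 fold change ± SE in the double mutant against wild type (horizontal axis) for the genes of 5 further lists, from all 12 libraries. Filled points are called at an adjusted p under 0.05: *pmp-5* at -1.10, *acdh-2* at -0.67, *acdh-4* at 1.16, *acdh-5* at 1.66, *acdh-8* at 2.07 and *ivd-1* at 0.57, and genes of 2 lists appear in both.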

How the data were processed

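The authors deposited, for each of the 12 libraries, the raw count of read pairs in each gene, made, per the file headers and the submitters' processing notes, with HISAT2, SAMtools and featureCounts 2.0.0 on WBcel235 (Ensembl release 97), over whole gene spans, introns included, on the strand the kit marks, without pairs of several places or genes. Levels per kilobase use exon lengths of Ensembl release 115, and 44017 of 46904 identifiers had a symbol. Counts of all 12 libraries were fitted in edgeR 4.0.16 (R 4.3.3) with TMM factors, the package's own filter and 1 mean per strain (8 residual degrees of freedom), and tested by quasi-likelihood in 7 contrasts with Benjamini-Hochberg adjustment over 15004 genes and a threshold of 0.05. The fit was run on simulated counts with known changes in the double mutant. No simulated library was made to stand apart as wild-type replicate 1 did, so that run does not cover this feature of the data. Alternatives were DESeq2 1.42.0, RLE factors, 2 other filters, a fold over 2, a replicate block, fewer strains and left-out libraries. Deviations from the strain means correlated at 0.13 to 0.541 in the 6 same-numbered pairs of a wild-type library with a single-mutant library. The 3 deviations of a strain sum to 0, so these pairs are not independent. They cannot settle whether libraries were paired by number. Named were the 10 members, the mutated genes, the 5 profiles nearest to *acdh-1* and up to 3 called genes per list with the smallest adjusted p. Members and lists were chosen with earlier results of these data known.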

Additional observations from a re-analysis of the deposited data

How the results depend on the processing

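The call of *hach-1* as lower in the double mutant than in wild type held under all 15 alternatives, with log2 fold changes from -1.11 to -0.77 and adjusted p from 1.98e-10 to 0.0119. The number of the 10 genes called lower in that comparison, 1 in the main test, was 3 with DESeq2 (8.2% of all genes called lower, against 6.3% in the main test), 2 with the replicate block (10%), 2 without all libraries of replicate 1 (11.6%) and 2 without wild-type and *trxr-2* replicate 1 together, an alternative chosen after seeing the data (8.57%). Against *gsr-1a*, where it was 1, it was 0 with a fold over 2 also required, 2 without those 2 libraries (6.03% of all genes, against 0.407%), and 0 to 1 with single libraries left out. Against *trxr-2*, where it was 1, it was 2 with DESeq2 (2.23% of all genes, against 0.853%), with the filter of 1 CPM in 3 libraries (1.65%), with the replicate block (1.35%) and without those 2 libraries (4.15%), 3 without all of replicate 1 (*ech-6*, *hach-1* and *hphd-1*, 11.5%), 0 with the fold required, and 1 to 2 with single libraries of the strains compared left out. For the interaction, where it was 0, it was 1 with DESeq2 (0.219% of all genes, against 0.04%), without all of replicate 1 (0.754%) and without those 2 libraries (0.344%), and 0 to 1 with single libraries left out. The sign changed for *alh-8* in *gsr-1a* without replicate 1 (-0.041, where single libraries left out gave 0.12 to 0.68), and for *pcca-1* in the double mutant without all of replicate 1 (-0.026), without those 2 libraries (-0.011) and with single libraries left out (-0.011 to 0.57). Of 70 values of the 10 genes over 7 comparisons, 31 changed sign under some alternative, none of them called before or after. Same-numbered libraries of the double mutant and the other strains deviated together in 1 of 9 pairs of libraries (r over 0.1, range -0.0843 to 0.219). In the comparisons of wild type with each single mutant, the replicate block changed no call of the 10 genes. In the double mutant the replicate block added *hphd-1* to the calls against wild type (adjusted p = 0.0445) and against *trxr-2* (adjusted p = 0.0494). The cause of these changes was not tested. With 3 libraries per strain, a missed threshold does not show that levels were alike: the 95% interval of *alh-8* in the double mutant ran from -0.28 to 1.26.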

Other observations

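The profile of *hach-1* over the 12 libraries, examined after its values were seen and by the same measure as for *acdh-1*, was nearest to those of *Y62H9A.4* (0.123), *F42A10.9* (0.123), *asp-13* (0.127), *drd-5* (0.131) and *papl-1* (0.158), where the median over 13152 genes was 0.498. Since this choice uses the same libraries, the changes of these genes in the double mutant are a description: the log2 fold change against wild type was -0.95 for *Y62H9A.4*, -0.84 for *F42A10.9*, -1.02 for *asp-13*, -0.74 for *drd-5* and -0.99 for *papl-1*. Among the 10 propionate genes the nearest to *hach-1* was *hphd-1*, the gene of the step after it, at rank 370 with a difference of 0.272.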
